A study of Arabidopsis thaliana with 6 samples.

Results

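The transposable elements of chromosome 2 of Arabidopsis thaliana were examined in leaf messenger RNA of wild-type and ddcc plants. An entry of the count table was taken as a member when its name began with AT2TE, the annotation's prefix for transposable elements (TEs) on chromosome 2. This gave 5949 members of the 31189 TEs and 62524 features in the table. Their identifier numbers, the digits after the prefix, ran from 10 to 89890 and follow the order of the elements along the chromosome, so a number gives order but not distance. Coordinates, families, lengths and sequences of the elements were not used here.

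Leaves came from plants of the accession Col-0 at 28 days of age. All samples shared a cold stratification at 4 °C for 48 h and growth at 21 °C with 16 h of light and 8 h of dark. Wild type was compared with the quadruple mutant ddcc, which carries mutations in DRM1, DRM2, CMT2 and CMT3, and each genotype had 3 libraries of polyadenylated RNA. The labels name no further allele, treatment, plant pool or batch, and they do not say whether the replicates came from separate plants, so p-values measure the spread between these libraries. The labels do not say which alleles make up the mutant or how many lines it stands for.

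Transposable elements are DNA sequences that move or once moved within a genome, either through an RNA copy (retrotransposons) or by excision and insertion of the DNA itself (DNA transposons). Plants keep most of them transcriptionally silent by methylating cytosines in CG, CHG and CHH contexts, where H is any base but G. CMT3 and CMT2 maintain non-CG methylation together with histone H3 lysine 9 methylation, mainly in heterochromatin, while DRM2 is guided by small RNAs and acts largely on short elements and element edges. Chromosome 2 is acrocentric, with ribosomal DNA repeats at the end of its short arm, and its TEs are densest around the centromere. The comparison asks which elements are transcribed when the 4 methyltransferases are mutated.

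Library totals ran from 15188586 to 18809306 counts. Transcripts of 3 of the mutated genes fell in ddcc, and DRM1 had at most 1 count in any library, so it gave no check of the labels. All 8 leaf markers, such as the Rubisco small subunit gene RBCS1A and the light-harvesting gene LHCB1.3, were abundant, with summed levels of 64320 to 68720 CPM in wild type (CPM is the count scaled by library size) and 58768 to 60943 CPM in ddcc. Of these markers 5 were called lower in ddcc, and the part of this shift in the TE values was not tested. The 12 markers of pollen, seed, root hairs and floral organs had at most 6 counts in any library. Pollen, whose vegetative nucleus is known for TE transcription, was represented by VGD1, VGDH1 and SYP124, which together had 0 counts in each wild-type library and at most 0.107 CPM in ddcc. In bulk RNA a change in the number of expressing cells and a change in RNA per cell cannot be told apart.

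Most of the members had no detected transcripts in either genotype. In all 6 libraries 5329 of the 5949 elements (89.6%) had 0 counts, and 620 (10.4%) had at least 1 count in some library, against 9.60% of TEs on all 5 chromosomes. Of the 620, 344 had counts in ddcc alone, 97 in wild type alone and 179 in both genotypes. The wild-type libraries held counts for 162, 183 and 135 elements, in the order of replicates 1, 2 and 3, and the ddcc libraries for 345, 361 and 306. Every ddcc library thus held more elements than every wild-type library, and the mean of 337 ± 28.3 was 2.11 times that of 160 ± 24.1 (SD over 3 libraries). An exact permutation test, two-sided, returned 0.1, which is the smallest value that 3 libraries against 3 can give.

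The ratio between the genotypes was larger, and the difference in elements smaller, at a higher count required for detection. At least 10 counts were found for 21, 21 and 19 elements in wild type and for 90, 87 and 81 in ddcc, a ratio of the means of 4.23. With every library thinned to the smallest total, the means at 1 count or more were 155 ± 20.5 and 315 ± 28.7 elements (SD, n = 3), so the excess was also present at equal library totals. Of 523 elements with a count in any ddcc library, 194 had one in all 3. For wild type these numbers were 276 and 74. A single library held all the counts of 262 elements, so the detection of these rested on 1 library.

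Counts assigned to chromosome 2 elements came to 5256, 4535 and 4396 in wild type against 13398, 13107 and 14785 in the mutant. As a share of all counts, the wild-type mean was 0.0288% ± 0.00109 and the ddcc mean 0.0754% ± 0.00395 (SD over 3 libraries), which is 2.62 times as much. The groups did not overlap (exact two-sided permutation p 0.1, the smallest possible), and the 95% Wilson interval of the highest wild-type library (0.0290% to 0.0306%) lay well below that of the lowest ddcc library (0.0700% to 0.0724%). These intervals cover counting error only.

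Relative to the TEs of the other chromosomes, the difference was not resolved. Members held 15.5%, 13.3% and 16.9% of TE counts in wild type against 16.6%, 18.5% and 18.5% in ddcc. The ranges overlapped, and the difference of 2.64 percentage points gave p 0.2 in the exact permutation test. It was 1.68 percentage points without wild-type replicate 2.

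**Figure D1:**
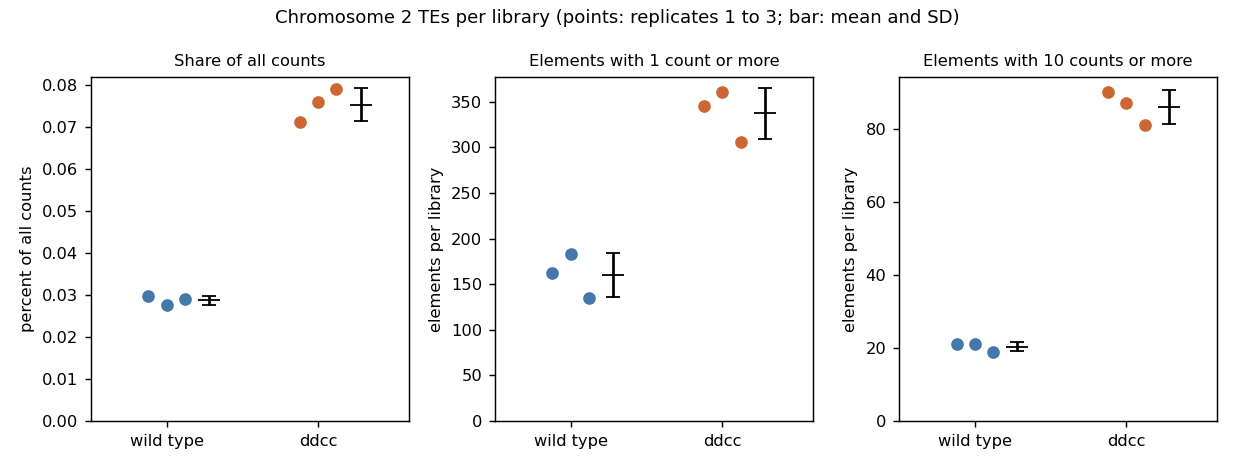
Chromosome 2 TEs in each of the 6 libraries, with points for replicates 1 to 3 and a bar for the mean ± SD (n = 3). The vertical axes give their percent of all counts, the number of elements with at least 1 count and the number with at least 10 counts. In all 3 panels every ddcc point lies above every wild-type point.

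Differences for single elements came from 1 edgeR quasi-likelihood fit over all features, with p-values adjusted over all 18498 features that passed a filter on low counts. Of the members, 71 (1.19%) passed this filter, 549 were detected but had too few counts, and the rest had none. A difference was called at an adjusted p under 0.05. On this rule 55 members were higher in ddcc and 0 were lower. Over all tested features 15.5% were called higher and 12.7% lower, and over all 372 tested TEs 57.8% and 6.45%. An element near 0 in wild type passes the filter only through its ddcc counts and so had to differ, which makes 55 of 71 a description of the tested elements and not of all members.

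At an unadjusted p under 0.05 the number of members lower in ddcc was also 0, against 18.6% of all tested features and 7.8% of tested TEs, and DESeq2 also called 0 lower and 55 higher. On the other chromosomes the numbers called higher and lower were 45 and 2 of 73 tested TEs on chromosome 1, 51 and 3 of 87 on chromosome 3, 26 and 11 of 58 on chromosome 4, and 38 and 8 of 83 on chromosome 5. Chromosome 2 was the one with 0 elements called lower, but whether it differs from the others in this was not tested. Every ddcc library lay above every wild-type library for 57 of the 71 tested members, against 22.5% of all tested features and 61% of tested TEs, and here too the filter fixes the direction of elements near 0 in wild type.

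**Figure D2:**
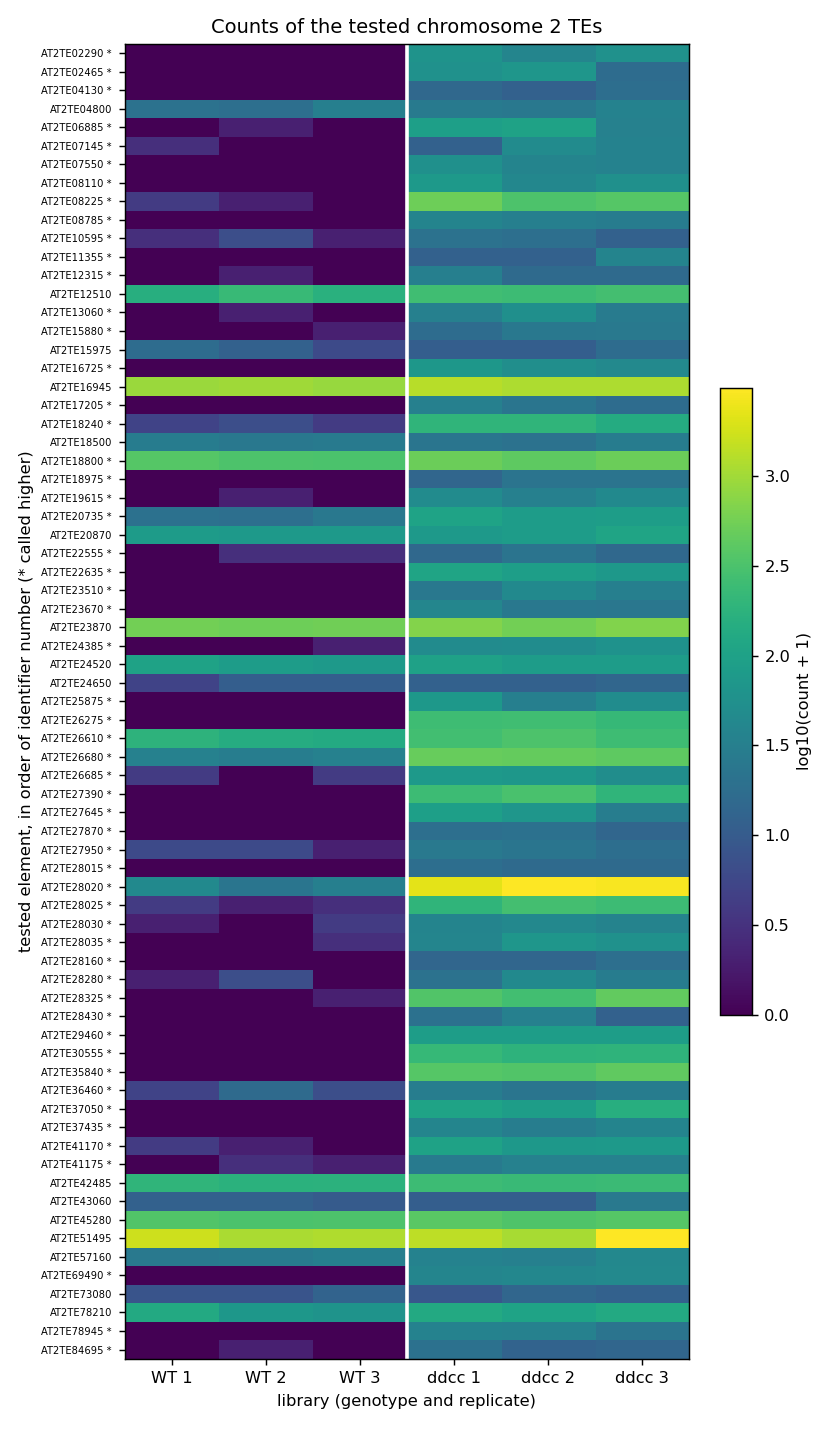
Counts of the 71 tested chromosome 2 elements, 1 row each in order of identifier number, in the 6 libraries (columns), coloured by log10(count + 1). Stars mark the 55 elements called higher in ddcc. Most starred rows are at or near 0 counts in wild type, and rows without a star have similar colours in both genotypes.

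Gained elements were defined as those called higher with 3 counts or fewer in every wild-type library. They numbered 45, against 1.08% of all tested features and 42.7% of tested TEs that met the same definition. Of the 45, 28 had 0 counts in every wild-type library and 17 had at least 1. Their mean level in ddcc ran from 0.756 to 22.0 CPM with a median of 2.21 CPM, so transcripts of most gained elements were scarce even in the mutant. Counts depend on element length as well as on transcript number, so an order by counts or CPM is not an order of transcripts per length. Reads that match several copies of 1 family make the assignment to single elements uncertain.

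The largest fitted increase belonged to AT2TE35840, whose ddcc counts were 374, 348 and 433 where each wild-type library had 0. Setting wild type to 3 counts per library, the level of 20.9 ± 2.01 CPM (SD, n = 3) in ddcc was at least 106-fold higher (edgeR's adjusted p was 7.76e-08). The element was therefore not detected in one genotype and among the better-detected gained elements in the other. Below it in fitted size stood AT2TE27390, at 0 in wild type, with ddcc counts of 250, 307 and 194 (at least 69.3-fold higher, edgeR's adjusted p was 4.52e-06). AT2TE26275 was at 0 in wild type, and its ddcc counts of 255, 259 and 219 were close together (at least 67.3-fold higher, edgeR's adjusted p was 3.26e-07). For AT2TE30555 the ddcc counts were 215, 177 and 188 over 0 in wild type (at least 53.1-fold higher, edgeR's adjusted p was 2.99e-07). In each of these the highest CPM in ddcc was at most 1.69 times the lowest, and AT2TE27390 was the least even of them.

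AT2TE37050 had 105, 86 and 155 counts in ddcc and 0 in wild type, at least 31.6-fold higher (edgeR's adjusted p was 1.66e-05). AT2TE22635 had 109, 89 and 71 counts, at least 24.6-fold higher (edgeR's adjusted p was 1.06e-05). AT2TE29460 had 88 counts in each of the 3 ddcc libraries, at least 24.2-fold higher (edgeR's adjusted p was 2.97e-06). Its coefficient of variation over the ddcc libraries was 4.83%, the lowest of all 45 gained elements. AT2TE27645 was less even, with 91, 68 and 29 counts (at least 17.2-fold higher, edgeR's adjusted p was 3.95e-04). AT2TE08110 had 73, 40 and 56 counts (at least 15.4-fold higher, edgeR's adjusted p was 4.14e-05). All of these had 0 counts in wild type, and fitted fold changes of such elements depend on a prior count, so their order is that of the fit alone.

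For 2 of the 17 gained elements with at least 1 wild-type count the values were as follows. AT2TE28325 had 0, 0 and 1 counts in wild type against 344, 269 and 451 in ddcc, a ratio of 934 with a 95% counting interval of 167 to 36919 (edgeR's adjusted p was 1.33e-07). Counting intervals pool the libraries of each genotype and leave out the spread between libraries. The single wild-type count lay in replicate 3, and without that library the fitted log2 fold change moved from 9.43 to 11.41. AT2TE08225, named here because of its values, had the highest ddcc level of the gained elements at 22.0 ± 4.50 CPM (SD, n = 3). Its counts were 3, 1 and 0 in wild type and 522, 331 and 374 in ddcc, a ratio of 269 with a counting interval of 105 to 990 (edgeR's adjusted p was 9.76e-08). Both elements were far above their wild-type counts in every ddcc library.

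**Figure D3:**
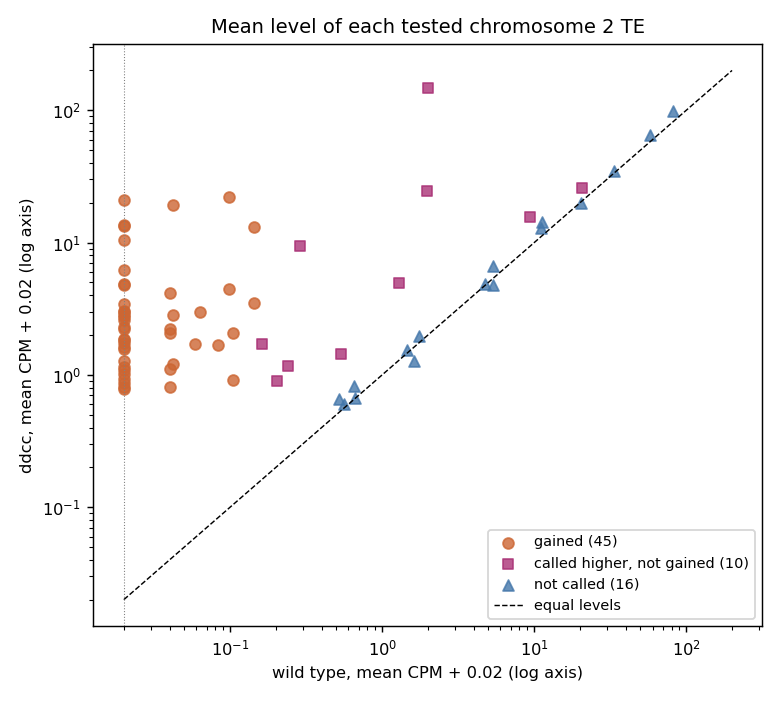
Mean level of each tested chromosome 2 element in wild type (horizontal) and ddcc (vertical), in CPM plus an offset of 0.02 on log axes. The 28 elements without wild-type counts sit on the dotted line at the left, the 45 gained elements have wild-type means close to 0, and the 16 elements that were not called lie along the dashed line of equal levels.

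Agreement between ddcc replicates varied among the gained elements. The highest ddcc library exceeded the lowest by less than 1.5 times in 20 of the 45 and by more than 3 times in 6. AT2TE11355, named after its values were seen for the largest coefficient of variation, had 11, 11 and 37 counts and a coefficient of variation of 75.1%, against a median of 22.9% over the 45. AT2TE02465 had 58, 68 and 16 counts, and its call was lost when the dispersion was estimated robustly. No single ddcc library held the highest value throughout: replicate 1 was highest for 18 gained elements, replicate 2 for 19 and replicate 3 for 8. Replicate 3 was the lowest for 21 of them, replicate 1 for 14 and replicate 2 for 10.

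The remaining 10 elements called higher had more than 3 counts in at least 1 wild-type library. AT2TE28020 stood out among them, with 44, 22 and 31 counts in wild type against 2261, 3096 and 2819 in ddcc. Its level rose from 1.99 ± 0.607 to 149 ± 29.7 CPM (SD, n = 3), or 6.21 on the log2 scale (with an SE of 0.20, and edgeR's adjusted p was 1.08e-08). This element alone held 16.9%, 23.6% and 19.1% of chromosome 2 TE counts in the ddcc libraries and at most 0.837% in wild type. AT2TE26680 had 33, 29 and 33 counts in wild type against 476, 459 and 416 in ddcc. Its level rose from 1.96 ± 0.193 to 24.4 ± 2.02 CPM, or 3.64 on the log2 scale (with an SE of 0.12, and edgeR's adjusted p was 1.00e-08). AT2TE20735 had 19, 18 and 24 counts in wild type against 106, 83 and 86 in ddcc, or 1.97 on the log2 scale (with an SE of 0.19, and edgeR's adjusted p was 4.24e-05). These 3 had few counts in wild type and more in every mutant library.

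A further 5 had under 10 counts in at least 1 wild-type library. AT2TE18240 was the strongest of these, with 4, 6 and 3 counts in wild type against 189, 190 and 141 in the mutant (0.267 ± 0.0910 and 9.42 ± 1.70 CPM, with 5.10 as log2 fold change, SE 0.27, and 3.61e-07 as adjusted p by edgeR). The others were AT2TE10595, AT2TE27950, AT2TE28280 and AT2TE36460, with mean ddcc levels between 0.887 and 1.70 CPM. AT2TE36460 had 4, 15 and 6 counts in wild type against 29, 22 and 28 in the mutant, the weakest increase of the 5 at a log2 fold change of 1.46 (SE 0.39, edgeR's adjusted p was 0.0185). On the CPM scale wild-type replicate 2 was the highest of its group for all 5. The call of AT2TE36460 was lost without wild-type replicate 1, wild-type replicate 3 or ddcc replicate 3.

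Elements expressed in both genotypes were defined by at least 10 counts in every library. There were 17, all tested, of which 5 were called higher and 0 lower. Among all tested features with at least 10 counts in every library 14.8% were called higher and 12.9% lower, and among such TEs 19.5% and 7.38%. These elements could enter the test through either genotype, so the filter does not fix their direction. Besides AT2TE28020, AT2TE26680 and AT2TE20735, the calls were AT2TE26610 and AT2TE18800. AT2TE26610 had 177, 145 and 137 counts in wild type against 274, 327 and 254 in ddcc, or 0.72 on the log2 scale (with an SE of 0.13, and edgeR's adjusted p was 0.00218). AT2TE18800 had 371, 325 and 312 counts in wild type against 510, 420 and 509 in ddcc, or 0.32 on the log2 scale (with an SE of 0.07, and edgeR's adjusted p was 0.00750). Neither reached a 2-fold difference.

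The other 12 elements expressed in both genotypes were not called, and their fitted log2 fold changes ran from −0.34 to 0.35 with a median of 0.13, against a median of 0.00 over all tested features. AT2TE16945 had 931, 974 and 902 counts in wild type against 1295, 1152 and 1157 in ddcc, or 57.9 ± 3.10 and 65.1 ± 2.88 CPM (SD, n = 3; edgeR's adjusted p was 0.0597). That value lay near the threshold, and it passed with library totals alone (edgeR's adjusted p was 0.0408) and with robust dispersion estimation (edgeR's adjusted p was 0.0472). AT2TE42485 had 194, 170 and 173 counts in wild type against 247, 229 and 236 in ddcc (edgeR's adjusted p was 0.0703), and it passed with library totals alone (edgeR's adjusted p was 0.0441). AT2TE12510 had 152, 223 and 165 counts in wild type against 262, 250 and 276 in ddcc (log2 fold change 0.35, edgeR's adjusted p was 0.0734). It passed without wild-type replicate 2, the highest of that group (log2 fold change 0.53, edgeR's adjusted p was 0.00972), and also with all libraries and no filter beyond 1 count (log2 fold change 0.36, edgeR's adjusted p was 0.0282). The lowest fitted value was that of AT2TE18500, with 28, 24 and 26 counts in wild type against 22, 20 and 28 in the mutant (−0.34, SE 0.23, edgeR's adjusted p was 0.295). The groups overlapped for this element.

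Levels of AT2TE23870 and AT2TE45280 were close in both genotypes. AT2TE23870 had 561, 525 and 543 counts in wild type against 693, 560 and 676 in the mutant, or 33.6 ± 1.82 and 34.8 ± 2.38 CPM. AT2TE45280 had 347, 312 and 324 counts in the former and 398, 334 and 376 in the latter. Their log2 fold changes were 0.05 (SE 0.07) and −0.02 (SE 0.07), so the fit left room for small differences in either direction.

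The element with the most wild-type counts was AT2TE51495, with 1690, 1101 and 1192 in wild type and 1403, 1082 and 3006 in ddcc. It held between 24.3% and 32.2% of chromosome 2 TE counts in the wild-type libraries. The ddcc replicates disagreed, with replicate 3 more than 2 times either of the others on the CPM scale. The log2 fold change of 0.27 (SE 0.29, edgeR's adjusted p was 0.528) did not pass the threshold, and it was −0.27 without ddcc replicate 3 (edgeR's adjusted p was 0.197).

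Gained elements and those expressed in both genotypes made up different parts of the TE counts of chromosome 2. For gained elements the definition itself fixes a share near 0 in wild type and a larger one in ddcc. A larger share of gained elements also lowers the share of the others, so these values describe the sets. The gained elements accounted for 0.286% or less in wild-type replicates 1 and 2 and for 0.364% in replicate 3, and for 28.9%, 27.1% and 24.0% in ddcc. Those expressed in both accounted for 91.3% to 94.0% in wild type and for 62.0% to 69.3% in ddcc. Elements outside the test added 280, 305 and 200 counts in wild type against 895, 874 and 705 in ddcc, or 15.9 ± 2.71 and 45.3 ± 6.75 CPM by library totals (SD, n = 3; exact two-sided permutation p 0.1, the smallest possible). The excess in ddcc was thus also present among elements too weak for a test of their own. Their highest total belonged to AT2TE16710, with 0 counts in wild type against 35, 18 and 9 in ddcc, an uneven set in which replicate 1 led. AT2TE28420 was as uneven, with 14, 30 and 6 ddcc counts over 0, but replicate 2 led there.

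Entries were not spread evenly over the identifier numbers. In 18 bins of 5000 numbers, the 6 lowest held 369 to 782 entries each, and the 5 bins from 65000 upwards held 64 to 84 each. Elements called higher occurred in 12 bins, and the bin that starts at 25000 held 19 of the 55, while no other bin held more than 7. All 19 tested elements of that bin were called higher, 14 of them as gained. The shares called higher were 77.5% of tested members, 57.8% of tested TEs and 15.5% of all tested features. Gained elements passed the filter only through their ddcc counts, which fixed their direction. The 3 elements of the bin that were expressed in both genotypes were AT2TE26610, AT2TE26680 and AT2TE28020. Its share of entries called higher was 3.12% of 609, against 0.925% of all members.

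The first 9 bins, with numbers under 45000, held 80.4% of the entries, 63 of the 71 tested elements and 52 of the 55 called higher. The last 9 bins held 19.6% of the entries, 8 tested elements and the other 3 called higher, which were AT2TE69490, AT2TE78945 and AT2TE84695. AT2TE69490 had 38, 40 and 43 counts in ddcc and 0 in wild type (at least 11.1-fold higher, edgeR's adjusted p was 3.10e-05), so gain was not absent from the sparse end of the numbering. Of the 17 elements expressed in both genotypes, 13 lay under 45000 and 4 above. The median identifier number was 25875 for gained elements, 24520 for those expressed in both and 22555 for all members, so the middles of the sets lay close together. The division at the middle of the range was chosen after the values were seen.

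**Figure D4:**
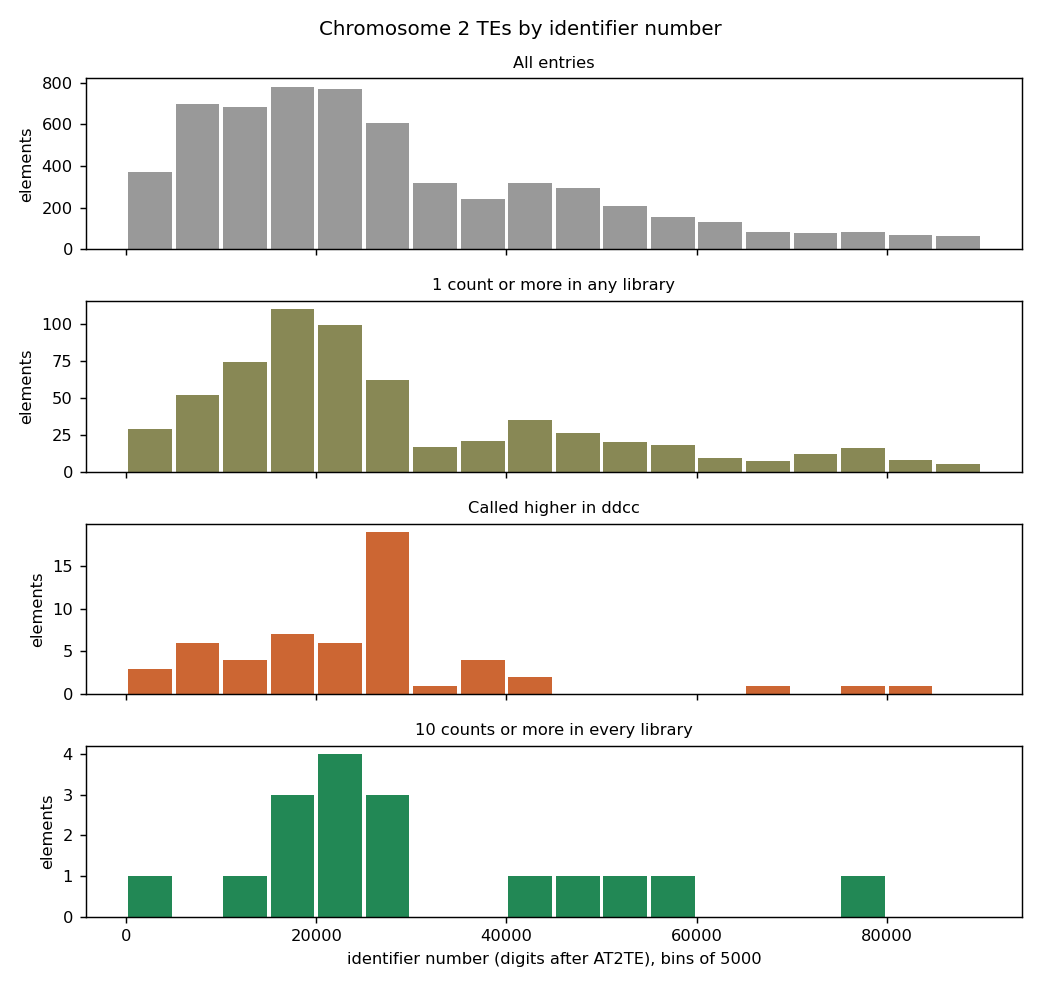
Number of chromosome 2 elements in bins of 5000 identifier numbers, from top to bottom for all entries, entries with at least 1 count in any library, elements called higher in ddcc and elements with at least 10 counts in every library. The bin that starts at 25000 holds 19 elements called higher, and 52 of the 55 lie under 45000, as do 63 of the 71 tested elements.

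Detection by position was compared per library. In wild type 2.53% ± 0.345 of entries under 45000 had a count per library, and 3.34% ± 0.647 of entries from 45000 upwards. In ddcc the values were 5.81% ± 0.490 and 5.09% ± 0.644 (SD, n = 3 each). Of the detected elements, 75.3%, 74.9% and 77.0% had numbers under 45000 in wild type, against 84.1%, 81.2% and 82.0% in the mutant. Every ddcc library thus had the higher share, which is given without a test because the division was chosen from the values. The bin that starts at 25000 supplied 5.14% to 5.59% of chromosome 2 TE counts in wild type and 35.0% to 43.6% in ddcc. Without AT2TE28020 it supplied 4.47% to 4.80% and 19.7% to 26.1%, so the shift was not that of 1 element alone. This bin was singled out for its elements called higher, so a larger share in ddcc came with that choice.

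Several called elements were neighbours in the table. Taking elements called higher that lay within 100 identifier numbers of the next, 2 runs of 3 or more were found, one of 7 elements from AT2TE27870 to AT2TE28035 and one of 3 from AT2TE26610 to AT2TE26685. The 5 last elements of the first run, AT2TE28015 to AT2TE28035, follow each other without an entry between them. The 7 elements together had 53, 28 and 39 counts in wild type against 2589, 3542 and 3205 in ddcc. The run was made of elements called higher, so a higher sum in ddcc was fixed by that choice. Most of the ddcc sum came from AT2TE28020.

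AT2TE28020 and the entry after it had the most ddcc counts of the run. AT2TE28025 had 3, 1 and 2 counts in wild type against 193, 281 and 249 in ddcc (ratio 106, counting interval 48.4 to 289, edgeR's adjusted p was 2.67e-07). AT2TE28030 had 1, 0 and 3 counts against 37, 41 and 35 (ratio 24.8, interval 9.42 to 92.6, edgeR's adjusted p was 8.57e-05), and AT2TE28035 had 0, 0 and 2 against 38, 68 and 57 (ratio 71.5, interval 19.5 to 596, edgeR's adjusted p was 6.40e-05). Without wild-type replicate 3, which held most of their few wild-type counts, the fitted log2 fold changes of these last 2 moved from 4.52 to 5.79 and from 5.94 to 8.72. AT2TE28015 had 17, 15 and 15 counts in ddcc over 0 in wild type, at least 4.31-fold higher (edgeR's adjusted p was 3.41e-04). On the CPM scale the ddcc replicates were in the same order, with replicate 2 highest, for AT2TE28020, AT2TE28025 and AT2TE28035. The order differed for AT2TE28030, where replicate 3 was lowest, and for AT2TE28015, where replicate 1 was highest. Whether the 5 entries share an insertion or reads was not tested.

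The 2 elements at the lower-numbered end of this run had few counts. AT2TE27870 had 18, 19 and 13 ddcc counts over 0 in wild type (at least 4.60-fold higher, edgeR's adjusted p was 4.57e-04). AT2TE27950 had 5, 5 and 1 counts in wild type against 25, 22 and 17 in ddcc (log2 fold change 2.32, SE 0.42, edgeR's adjusted p was 0.00235). The shorter run joined AT2TE26610 and AT2TE26680, described above, with AT2TE26685, which had 3, 0 and 3 counts in wild type against 73, 70 and 50 in ddcc (ratio 28.2, interval 12.7 to 77.9, edgeR's adjusted p was 3.29e-05). AT2TE41170 and AT2TE41175 formed another pair of neighbouring entries that were both called higher. AT2TE41170 had 3, 1 and 0 counts in wild type against 101, 72 and 74 in the mutant, and AT2TE41175 had 0, 2 and 1 against 26, 33 and 33 (5.80e-06 and 9.68e-05 as adjusted p by edgeR).

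No loss was called among the tested elements. After the filter, 0 members met the definition of lost, a call of lower with 3 counts or fewer in every ddcc library, against 0.0649% of all tested features and 1.61% of tested TEs. Of the 97 elements seen in wild type alone, the highest total was 11 counts. Without a filter beyond 1 count, 4 of the 620 members then tested were called lower: AT2TE20685, AT2TE20895, AT2TE20900 and AT2TE20905. The share of all features called lower in that setting is not given here. AT2TE20905 had 5, 5 and 1 counts in wild type and 0 in each ddcc library (edgeR's adjusted p was 0.0190 in that setting), and AT2TE20685 had 6, 5 and 0 against 0 (edgeR's adjusted p was 0.0297). AT2TE20895 had 7, 5 and 2 counts against 0, 1 and 0, and AT2TE20900 had 3, 5 and 1 against 0. All 4 lie within 220 identifier numbers of each other.

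The stretch around them was looked at after these values were seen. Between AT2TE20650 and AT2TE20990, 62 entries were not tested, and 23 of them had counts. Summed over these 62, the wild-type libraries had 52, 47 and 31 counts and the ddcc libraries 8, 9 and 6. Wild-type totals exceeded ddcc totals for 20 of the 23, and 14 had counts in wild type alone and 1 in ddcc alone. The summed counts of all other untested members were higher in ddcc, with 228, 258 and 169 in wild type against 887, 865 and 699. Among these, wild-type totals exceeded ddcc totals for 113 of 526 elements with counts, and 83 had counts in wild type alone and 315 in ddcc alone. Within the same stretch, AT2TE20735 rose as described above, and AT2TE20870 had 82, 75 and 74 counts in wild type against 75, 83 and 110 in ddcc (log2 fold change 0.03, SE 0.16, edgeR's adjusted p was 0.920). In this stretch, picked from these values, low wild-type counts that were lower in ddcc lay beside an element that was higher. Its sums include the elements called lower without the filter.

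**Figure D5:**
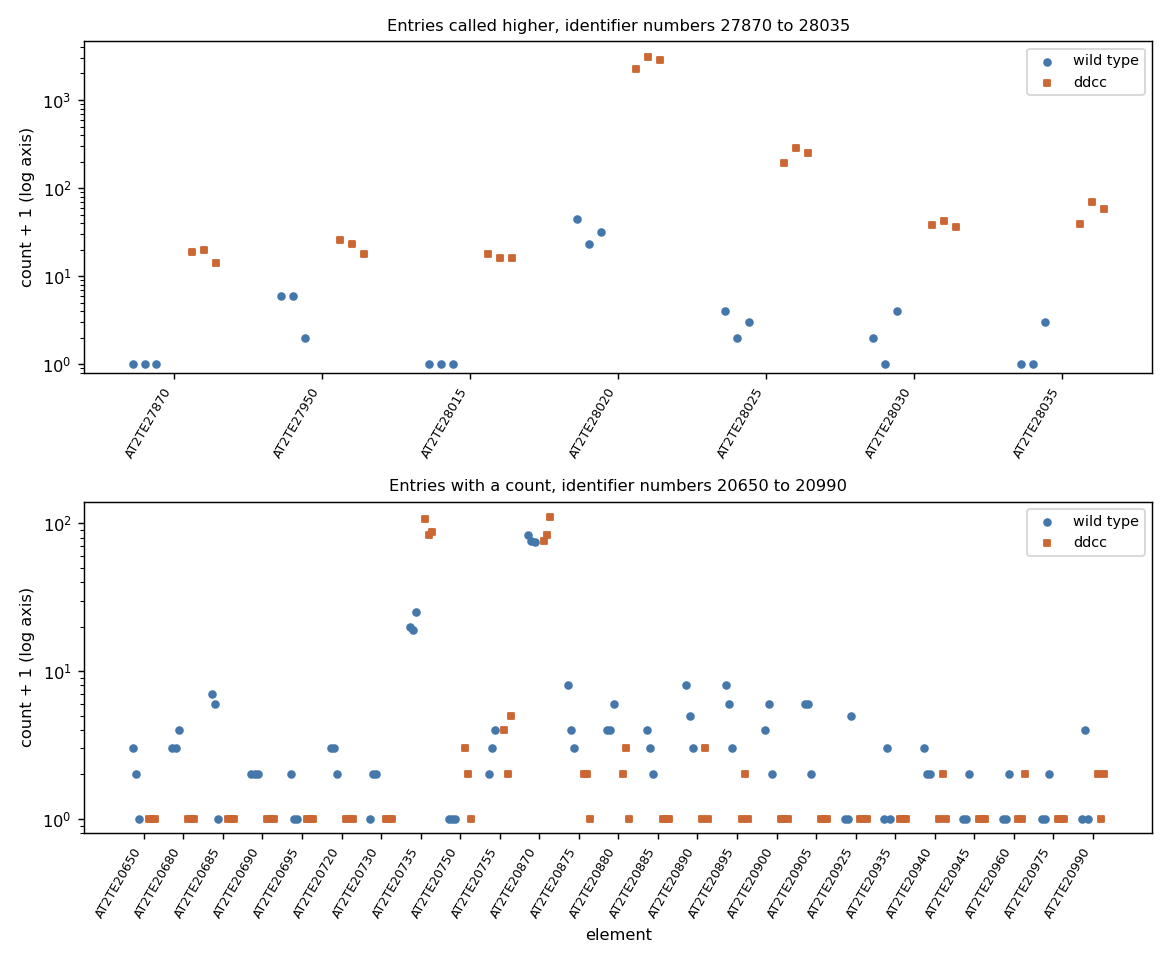
Counts plus 1 on a log axis for each library, with circles for wild type and squares for ddcc. The upper panel shows the 7 elements of the run from AT2TE27870 to AT2TE28035, all higher in ddcc. The lower panel shows entries with a count between AT2TE20650 and AT2TE20990, where most weak entries have wild-type counts and few or no ddcc counts, while AT2TE20735 is higher in ddcc.

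Genes known to act in TE silencing, or to remove DNA or histone methylation, were compared in the same fit. Of 22 such genes, all tested, 3 were called higher and 3 lower (shares near the background of 15.5% and 12.7% over all tested features), and the median log2 fold change was −0.01, against 0.00 over all tested features. ROS1, a DNA demethylase gene, had 80.7 ± 5.20 CPM in wild type and fell to 1.98 ± 1.32 in ddcc (SD, n = 3 each; a log2 difference of −5.33 with an SE of 0.23; edgeR's adjusted p was 1.02e-07). NRPD1, which encodes the largest subunit of RNA polymerase IV, rose by 1.13 on the log2 scale (SE 0.14, edgeR's adjusted p was 1.74e-04). H1.2, a linker histone gene, rose by 0.37 (SE 0.07, edgeR's adjusted p was 0.00183), and MORC6, a gene for an ATPase needed in silencing, rose by 0.34 (edgeR's adjusted p was 0.0497). AGO4, whose protein binds small RNAs, fell by 0.31 on the log2 scale (edgeR's adjusted p was 0.0160). IBM1, a histone demethylase gene, had a log2 difference of −0.29 (edgeR's adjusted p was 0.0232). The chromatin remodeller gene DDM1 and the CG methyltransferase gene MET1 differed by −0.49 (SE 0.19) and −0.20 (SE 0.08) on the log2 scale and did not pass the threshold (edgeR's adjusted p-values were 0.0740 and 0.0864).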

How the data were processed

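The authors deposited raw read counts per gene and transposable element, without normalization, for 6 libraries. Per the submitters' processing notes, Trim Galore 0.6.0, cutadapt 1.15, STAR 2.7.0f and the build TAIR10 were used. The counting program, use of strand and treatment of multi-mapping reads are not given in the sources used here. Per the labels' protocols, plants grew on soil at 21 °C with 16 h of light, and 500 ng of total RNA per library entered the selection of polyadenylated RNA.

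Genes and TEs were fitted together. Features passing filterByExpr (minimum count 10) were scaled with TMM factors. Genotype was tested without covariates by edgeR's quasi-likelihood method (version 4.0.16, R 4.3.3), with Benjamini-Hochberg adjustment over all tested features. SEs were derived from the fold change and the F statistic. Folds against 0 counts are lower bounds at a floor of 3 counts per library (0.156 to 0.197 CPM), taking the highest wild-type floor. Ratios against few counts have exact 95% conditional binomial intervals on pooled counts, which cover counting error only. Values with 1 number per library were compared by exact permutation (scipy 1.17.1). The fit was also run on simulated counts with the same dispersion for every feature. That run gives no support for calls of elements whose libraries varied more widely.

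Named elements were the 10 largest fitted increases among calls with non-overlapping groups and a mean count of 20 or more, up to 10 calls lower, the 10 highest mean CPM and up to 5 calls among elements expressed in both, and runs. The members, lists and settings were chosen with earlier results of these data known. Every column of sample values was matched (0 were left over). The moss batch table was not used here.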

Additional observations from a re-analysis of the deposited data

How the results depend on the processing

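The filter on low counts moved the numbers of calls most. With no filter beyond 1 count, 620 members were tested, against 71 in the main test. Of these 620, 108 were called higher, 97 gained, 4 lower and 4 lost. The 53 calls of higher added in this way included 52 elements outside the main test, with 10 to 62 counts over all libraries. A minimum mean count of 50 left 23 members tested, 14 higher and 8 gained. Shares over all features at these settings are not given here, so the numbers describe only how the calls depend on the filter. Leaving out each library in turn gave 56 to 67 elements called higher, 46 to 58 gained, 0 lower and 0 lost. The filter was applied anew each time and passed 72 to 83 members against 71, so the larger numbers came with a larger tested set. AT2TE36460 lost its call without wild-type replicate 1, wild-type replicate 3 or ddcc replicate 3. The 3 other scalings, DESeq2 1.42.0, robust dispersion estimation and an adjusted p under 0.01 or a log2 fold change of at least 1 gave 53 to 57 higher and 44 to 45 gained.

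The share of all counts differed by 0.0466 percentage points (0.0448 to 0.0487 leaving out single libraries), by 0.0248 without the 10 members with the most counts, and by 0.0299 without AT2TE28020 and AT2TE51495, a setting chosen after seeing the data. The difference in the share of TE counts was 5.20 percentage points (exact permutation p 0.1) without the 10 members with the most counts, which leaves the largest elements of the other chromosomes in place, 1.35 (exact permutation p 0.3) without AT2TE28020 and AT2TE51495, and 1.68 to 3.48 leaving out single libraries. The difference of 177 detected elements (165 to 193 leaving out single libraries) was 107 at 3 counts or more and 65.7 at 10 or more. The number expressed in both ran from 15 to 20. With a replicate block, added as a term, 55 elements were called higher, 45 gained and 0 lower or lost. The deviations of libraries with the same number correlated at −0.10, −0.08 and 0.03, and those with different numbers at −0.05 to 0.12. Such values cannot show whether the libraries were paired. Elements below the filter were left out of the main test by that filter.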
